A study of Rattus norvegicus with 7 samples.

Results

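The genes described here are 8 genes of peripheral nerve: the Schwann cell and myelin genes Mbp, Pmp22, Prx, Mag, Cdh19 and S100b, and the potassium channel genes Kcna1 and Kcna2. They were chosen by symbol, with their differences between ultraviolet B (UVB) and control glands already known, so their differences are given as a description with no test. Of the 8 genes, 7 were found among the 17246 genes read from the deposited tables, and Kcna1 was not analysed here. Of these 7, 6 passed the filter on low counts, as did 13709 genes in all, and Mag did not.

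RNA sequencing was done on meibomian glands, the lipid-secreting glands of the eyelid margin, from wild-type female Sprague-Dawley rats aged 3 months. The control group had 4 untreated samples, and the UVB group had 3 samples from animals whose shaved upper lids received 300 mJ/cm2 of UVB, given daily for 5 min over 5 days. The labels attach that protocol, shaving included, to every sample, and do not state whether the controls were shaved, when glands were taken after the last exposure, or whether each library came from 1 animal. The p-values below therefore measure only the spread between these samples, which may be technical. Library totals ran from 20680237 to 28784941 estimated counts. The columns give the group of a library but not its number, so the 4 control libraries carry the letters a to d and the 3 UVB libraries a to c.

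Schwann cells are the glial cells of peripheral nerves. Myelinating Schwann cells wrap large axons in a compact sheath, in which Mbp holds the cytoplasmic faces of the membrane together and Pmp22 is a membrane protein whose dose is critical for a stable sheath, and they express Prx, a scaffold that links the sheath to the basal lamina, and Mag, an adhesion molecule that faces the axon. Cdh19 is a cadherin of the Schwann cell lineage, and S100b is a calcium-binding protein of all Schwann cells that melanocytes and adipocytes also make. Kcna1 and Kcna2 encode the pore subunits Kv1.1 and Kv1.2, which join in mixed channels under the myelin beside the paranodes of axons and limit repetitive firing. The cell bodies of sensory and sympathetic axons lie in ganglia outside the eyelid.

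The promoters of the genes that moved most, Kcna2 and S100b, and that of Cdh19 are shown first. These 3 differ in base composition, and among them only that of Cdh19 holds a match to the motifs searched. Each window runs from 250 bases before to 50 bases after the start of the gene, 5′ to 3′, from RefSeq on the rat build GRCr8, and capitals mark a motif match. Kcna2 lies at chr2:197393280-197393579 on the plus strand, S100b at chr20:12381032-12381331 on the minus strand and Cdh19 at chr13:28533704-28534003 on the minus strand.
Kcna2: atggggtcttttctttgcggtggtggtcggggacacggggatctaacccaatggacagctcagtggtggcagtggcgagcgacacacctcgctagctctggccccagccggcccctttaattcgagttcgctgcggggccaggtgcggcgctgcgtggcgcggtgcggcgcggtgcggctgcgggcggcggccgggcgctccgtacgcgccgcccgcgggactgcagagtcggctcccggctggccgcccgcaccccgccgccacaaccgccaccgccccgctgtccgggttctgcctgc
S100b: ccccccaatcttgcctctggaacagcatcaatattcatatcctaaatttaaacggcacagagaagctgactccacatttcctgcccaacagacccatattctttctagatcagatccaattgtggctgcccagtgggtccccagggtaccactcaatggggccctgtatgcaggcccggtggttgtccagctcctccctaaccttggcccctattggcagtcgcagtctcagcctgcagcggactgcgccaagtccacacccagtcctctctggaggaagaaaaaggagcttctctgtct
Cdh19: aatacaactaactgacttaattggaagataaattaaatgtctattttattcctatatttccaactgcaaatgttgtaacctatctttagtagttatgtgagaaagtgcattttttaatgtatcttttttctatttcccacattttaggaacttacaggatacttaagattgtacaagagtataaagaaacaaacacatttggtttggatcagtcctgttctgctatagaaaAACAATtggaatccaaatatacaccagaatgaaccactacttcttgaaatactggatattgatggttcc
The GC content was 73.3% for Kcna2, 54% for S100b and 30% for Cdh19, against a median of 51.7% over all 33469 windows of the same length. Both strands were searched for AACAAT and AACAAAG, which SOX factors such as Sox10 can bind, and for GCGNGGGCG, the core bound by EGR factors such as Egr2. These motifs do not overlap each other. The Cdh19 window held 1 match, AACAAT at bases -19 to -14 from the start, and those of Kcna2 and S100b held none of the motifs. A SOX match was present in 16.7% of all windows and an EGR match in 4.98%. Windows were found for 7 of the 8 genes: those of Pmp22, Prx and Mag held no match, and of the 2 windows of Mbp 1 held 2 matches to AACAAT.

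The Schwann cell lineage genes Sox10, Egr2, Erbb3 and Pou3f1 were all detected, as were the myelin genes described below. These are not confined to Schwann cells: melanocytes share Sox10, and Egr2 and Erbb3 are also expressed in other skin cells, so their detection alone does not settle the cell of origin. Sox10, the master regulator of the lineage, reached 4.04 TPM (a level that the authors scaled to transcript length and library) as a mean of the controls, and the melanocyte gene Pmel reached 47 TPM. The axon and neuron list gave a mixed picture. No library held more than 2 counts of the neurofilament genes Nefl or Nefm, or more than 1 count of the synaptic gene Snap25, the neuronal RNA-binding gene Elavl3 or Calca, the CGRP neuropeptide gene. Others were well detected, with control means of 6.69 TPM for Map1b, 4.99 TPM for Nefh and 4.39 TPM for Mapt, which encode proteins of the axonal cytoskeleton. Kcna2 is called here by its symbol, since these values do not settle which cells carried its transcript.

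In control glands the levels of the genes, compared per length in TPM, ran from Mbp at 43.8 ± 2.59 (SD, n = 4) and Pmp22 at 41.5 ± 6.56 through S100b at 13.3 ± 3.20 and Kcna2 at 11.8 ± 2.32 to Prx at 3.97 ± 0.347, Cdh19 at 0.915 ± 0.208 and Mag at 0.253 ± 0.0911. Neighbours in that order whose control libraries overlapped were Mbp with Pmp22 and S100b with Kcna2, and the other neighbours were separated in every control library. After UVB the mean TPM was 91.2% of the control mean for Mbp, 83.8% for Prx, 83.4% for Cdh19, 82.2% for Pmp22 and 73.9% for Mag. It was 49.3% for S100b and 21.8% for Kcna2. The low level of Mag rests on 4 to 11 counts per library. In bulk tissue, fewer cells of a type and less RNA per cell cannot be told apart.

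The compact myelin genes differed little. Mbp was at 45.8, 42.3, 40.8 and 46.3 CPM (counts relative to library size, scaled by TMM normalisation factors) in controls a, b, c and d and at 34.8, 41.5 and 35.3 CPM in the UVB libraries a, b and c. UVB b lay inside the control range and the other UVB libraries lay under it, and the log2 fold change, UVB minus control, was -0.24 (SE 0.083), or 1.18-fold lower. Pmp22 was at 33.9, 46.9, 39.2 and 47.8 CPM in controls and at 39.0, 28.4 and 35.0 CPM after UVB. The groups overlapped, control a being the lowest control and UVB b the lowest library of all, with a log2 fold change of -0.30 (SE 0.14).

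The myelin genes with a place outside the compact sheath also had overlapping groups. Prx was at 10.6, 12, 12.3 and 12.3 CPM in controls and at 10.8, 7.94 and 10.98 CPM after UVB, where UVB b alone lay under the controls. Its log2 fold change was -0.25 (SE 0.14), and leaving out 1 library moved it between -0.34 and -0.11. Mag had 11, 4, 11 and 9 counts in controls and 4, 11 and 6 counts after UVB, so both groups covered the same range of counts.

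Cdh19 and S100b, the lineage genes of the set, were both lower on average, and their difference in size was not tested. Cdh19 was at 1.54, 1.54, 2.07 and 2.39 CPM in controls and at 1.47, 1.55 and 1.70 CPM after UVB. Controls a and b were level with the UVB libraries and controls c and d were above them, with a log2 fold change of -0.27 (SE 0.24). S100b was at 9.48, 13.3, 16.5 and 12.9 CPM in controls and at 5.78, 6.27 and 7.44 CPM after UVB. Every UVB library lay below every control, control a being the nearest, and the log2 fold change was -1.005 (SE 0.19), or 2.01-fold lower. S100b overlaps Dip2a in the RefSeq annotation and the handling of strand is not given in the sources used here, so their reads may not be fully separated. Dip2a was at 9.98 ± 0.617 TPM (SD, n = 4) in controls and 11.8 ± 0.577 TPM (n = 3) after UVB, a log2 fold change of 0.23 (SE 0.066, adjusted p = 0.0515 in edgeR), in the opposite direction to S100b.

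Kcna2 had the widest separation of the 7 genes. Its counts were 1449, 1588, 2773 and 2331 in the controls and 557, 307 and 431 after UVB, and no gene overlaps it in the annotation. On the CPM scale the controls were at 67.6, 74.1, 95.7 and 99.6 and the UVB libraries at 26.4, 11.9 and 16.6. Controls c and d were the highest and UVB b the lowest, and the nearest libraries of the groups, control a and UVB a, differed by more than the spread within either group. The log2 fold change was -2.21 (SE 0.28), or 4.63-fold lower. It lay between -2.56 without UVB a and -1.97 without UVB b. Of all 13709 genes, 15 fell past the threshold by at least as much, and of the 11966 genes with a mean count of at least 50, 4 did.

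**Figure D1:**
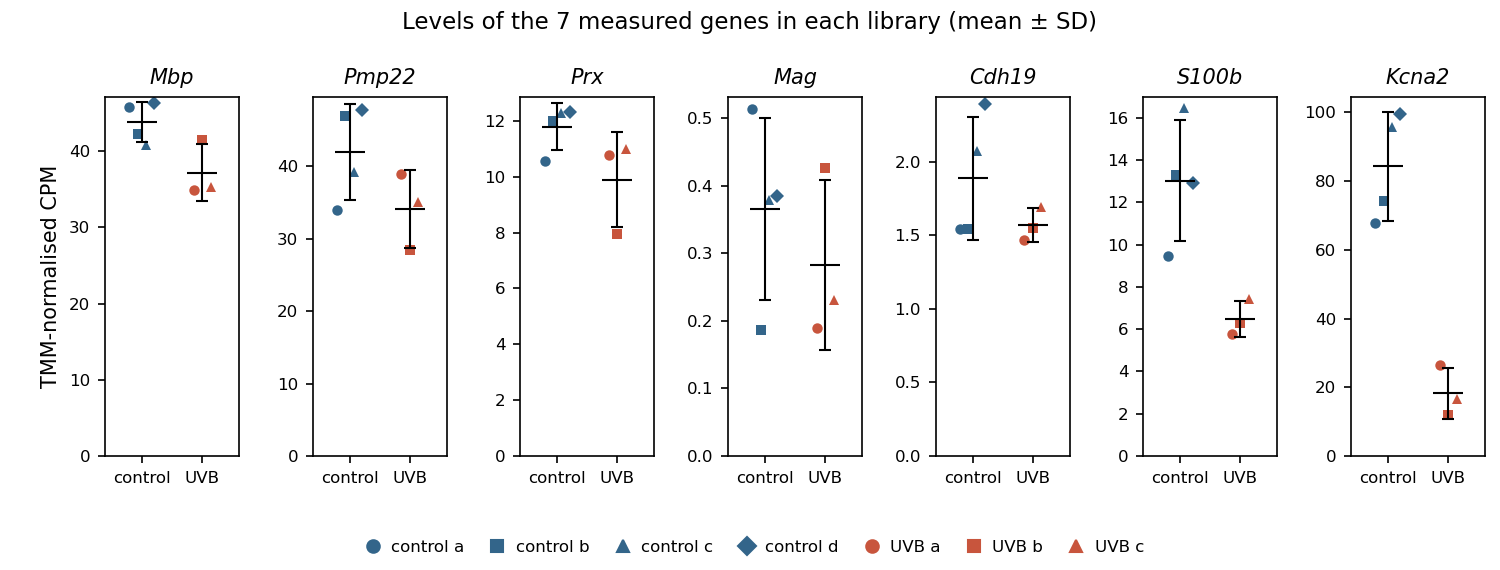
Level of each of the 7 measured genes in every library, in TMM-normalised CPM on separate linear axes that start at 0; points are libraries, and bars show the group mean ± SD (4 control and 3 UVB libraries). The UVB libraries sit below all controls for S100b (at most 7.44 against at least 9.48 CPM) and Kcna2 (at most 26.4 against at least 67.6 CPM), and the groups overlap for the other 5 genes.

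A gene is called changed here where edgeR's adjusted p over all tested genes was under 0.05. Of the 6 tested genes of the set, 2 (S100b and Kcna2) passed that threshold, where 13.0% of all tested genes passed it and 6.74% passed it as lower after UVB. The same 2 genes had every UVB library below every control, as had 13.8% of all tested genes. Since the genes were chosen with these differences known, nothing is read from those counts. All 6 log2 fold changes were below 0, as were 50.9% of all tested genes.

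Genes of myelin other than the members were lower after UVB in part. Of 20 listed, 17 were tested: 5 fell, 1 rose and 11 did not pass the test, against 6.74% of all genes lower and 6.30% higher. The median log2 fold change was -0.69, against -0.0058 over all tested genes, and 15 of the 17 values were below 0. In 10 of the 17 every UVB library lay below every control, as in 13.8% of all tested genes. The list was drawn up with earlier results of these data known. Its summed level, in which abundant genes weigh most, overlapped between groups. It ran from 193 to 248 CPM in controls and from 181 to 246 CPM after UVB. The myelin genes Mal and Fa2h, whose log2 fold changes were above 0, are part of that sum. Mal was at 41.3 to 81.0 CPM in controls and at 95.6, 82.8 and 32.8 CPM in UVB a, b and c. Fa2h was at 17.8 to 27.1 CPM in controls and 29.7 to 50.6 CPM after UVB. The mean log2 CPM of the 17 genes, in which each gene weighs the same, did not overlap. It was 2.19 to 2.43 in controls and 1.54 to 1.97 after UVB.

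The myelin genes that fell included Drp2, Pllp, Gldn and Plekhb1. Drp2, the dystrophin-related partner of Prx in the sheath's outer surface, fell from 9.19 ± 1.24 CPM (SD, n = 4) to 4.66 ± 0.144 CPM (n = 3), a log2 fold change of -0.98 (SE 0.14, adjusted p = 0.00539 in edgeR). Prx itself, on the same scale, differed by -0.25. Pllp, a lipid-raft protein of myelin, fell from 23.4 ± 3.39 to 11.1 ± 2.44 CPM, a log2 fold change of -1.08 (SE 0.16, adjusted p = 0.00614).

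Gldn, a ligand that gathers sodium channels at nodes, fell by 0.69 on the log2 scale (adjusted p = 0.0491), and Plekhb1, which overlaps Rab6a in the annotation, fell by 0.68 (adjusted p = 0.0445). The gene that rose was Fa2h, a fatty acid hydroxylase for myelin sphingolipids that epidermis and sebaceous glands also use, by 0.75 on the log2 scale (adjusted p = 0.0399). Without control b, control c, control d or UVB b, 3 myelin genes and not 5 were lower, and without any library except UVB b, Fa2h did not pass.

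**Figure D2:**
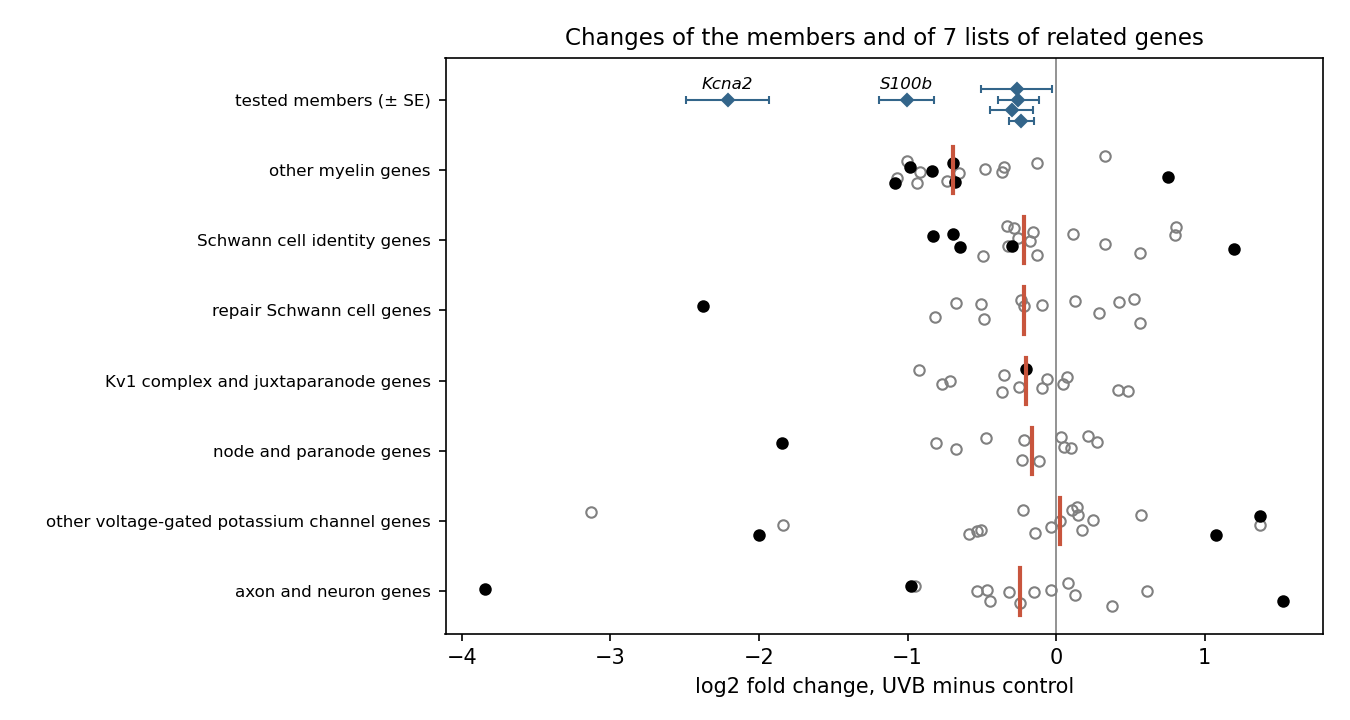
Log2 fold change (UVB minus control, x axis) of the 6 tested genes of the set, as diamonds with ± SE, and of the tested genes of 7 lists, as circles; filled circles passed an edgeR adjusted p under 0.05, and vertical bars mark each list's median. Kcna2 (-2.21) and S100b (-1.005) lie apart from the other 4 genes of the set, and the myelin list has its median at -0.69 while the other medians lie between -0.25 and 0.025.

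The Schwann cell identity list, which holds transcription factors, receptors and adhesion genes of the lineage, had 18 of 20 genes tested. Of these 4 fell, 1 rose and 13 did not pass, against 6.74% of all tested genes lower and 6.30% higher. The same shares are the background for the lists and markers below. The median log2 fold change was -0.21. The summed level, in which abundant genes such as Egr2 and Erbb3 weigh most, was 476 to 507 CPM in controls and 379 to 416 CPM after UVB. The mean log2 CPM of the 18 genes, in which each gene weighs the same, overlapped between groups. It was 3.44 to 3.66 in controls and 3.37 to 3.62 after UVB, a difference of -0.05 in the group means. Sox10 was at 6.68, 8.12, 6.21 and 8.46 CPM in controls and at 6.40, 4.45 and 4.89 CPM after UVB. UVB a lay inside the control range, and the log2 fold change was -0.49 (SE 0.18, adjusted p = 0.0995).

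Egr2, the transcription factor that drives myelination, fell from 106 ± 7.30 CPM (SD, n = 4) to 67.7 ± 8.40 CPM (n = 3), with a log2 fold change of -0.65 (SE 0.091, adjusted p = 0.00453). Scn7a, a sodium-sensing channel of non-myelinating Schwann cells, fell from 26.3 ± 1.72 to 14.9 ± 3.18 CPM, a log2 fold change of -0.83 (SE 0.14, adjusted p = 0.0073). The neuregulin receptor gene Erbb3 fell by 0.30 on the log2 scale (adjusted p = 0.0225) and the adhesion gene Ncam1 by 0.69 (adjusted p = 0.0277). The gene that rose was Nrg1, a neuregulin ligand and not a Schwann cell marker, from 2.55 ± 0.621 to 5.84 ± 1.34 CPM (log2 fold change 1.20, SE 0.23, adjusted p = 0.0122). Egr2, Erbb3 and Nrg1 are also expressed in skin cells other than Schwann cells. Without control c, control d or UVB b, 2 identity genes and not 4 were lower.

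Of 15 listed genes of repair Schwann cells, the state that follows nerve injury, 13 were tested: 1 fell, 12 did not pass, and the median log2 fold change was -0.21. Jun, which drives that state, had a log2 fold change of -0.24 (SE 0.13, adjusted p = 0.238). The gene that fell was Shh, which hair follicles and other epithelia also express, with 14, 10, 28 and 25 counts in controls and 0, 5 and 6 after UVB. The groups did not overlap (log2 fold change -2.38, SE 0.61, adjusted p = 0.0332), but the call was lost without control c, control d, UVB a, UVB b or UVB c, when the adjusted p lay between 0.0543 and 0.0828.

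Whether Kcna2 followed nerve genes was asked by setting its level against theirs in each library, on the log2 CPM scale with a prior count of 2. Kcna2 minus the mean of the 6 Schwann cell genes of the set was 3.21, 3.36, 3.53 and 3.53 in controls and 2.20, 0.979 and 1.43 after UVB. Every UVB library lay below every control, UVB a being the nearest. The mean was 3.41 ± 0.153 (SD, n = 4) in controls and 1.53 ± 0.618 (n = 3) after UVB, a difference of -1.87. The 6 genes themselves differed by -0.38 in their mean level, from 2.97 to 2.59, so Kcna2 was 3.66-fold lower relative to them. Leaving out the sparse Mag gave -1.86.

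The same held against genes that were not members. Against the 17 other myelin genes, Kcna2 stood at 4.09 ± 0.249 in controls and 2.38 ± 0.359 after UVB, 3.27-fold lower. Against the 18 identity genes it stood at 2.82 ± 0.255 and 0.613 ± 0.455, 4.61-fold lower. Against Sox10 alone the difference was -1.77, or 3.41-fold. Every UVB library lay below every control in each case. In these 4 settings, made of genes listed for Schwann cells and myelin, Kcna2 fell by more than the genes it was set against. The identity mean includes Nrg1 (log2 fold change 1.20), and the myelin mean includes Fa2h (0.75). Both rose, which raised those means after UVB and made the folds against them larger. Axon and neuron genes were not used as a setting. Their list, described below, had a median log2 fold change of -0.25, with values from -3.84 for Bsn to 1.53 for Tubb3. No test is given because Kcna2 was chosen for its fall.

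**Figure D3:**
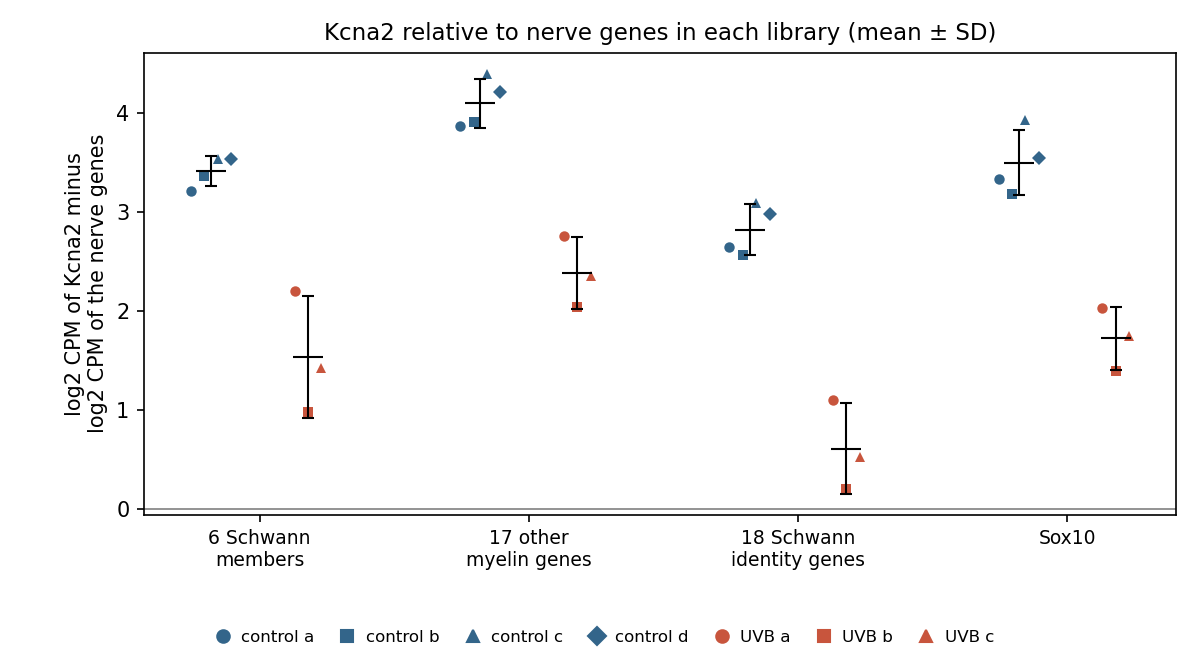
Log2 CPM of Kcna2 minus the mean log2 CPM of each set of nerve genes (y axis) in every library; points are libraries and bars show the group mean ± SD (4 control and 3 UVB libraries). UVB libraries lie below all controls in each of the 4 settings, and the means are 3.41 and 1.53 against the 6 Schwann cell genes.

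Kcna2 was the most abundant of the Kv1 channel genes analysed. In controls its 11.8 TPM compared with 2.73 ± 0.509 TPM for Kcna7, a channel gene of muscle, 2.24 ± 1.65 TPM for Kcna10, 0.325 ± 0.0940 TPM for Kcna3 and 0.225 ± 0.103 TPM for Kcna5. Kcna4 and Kcna6 had at most 2 and 3 counts. Kcna7 was at 2.82 ± 1.44 TPM after UVB, with overlapping groups (log2 fold change 0.025, SE 0.33, adjusted p = 0.971). Of the genes of beta subunits, which bind the inner side of Kv1 channels, Kcnab1 was at 0.760 TPM in controls and 0.447 TPM after UVB, Kcnab2 at 0.543 and 0.623 TPM, and Kcnab3 at 2.49 and 1.57 TPM, with overlapping groups in all 3. Kcnab2, the beta subunit most tied to Kv1 channels in axons, had 5 to 19 counts per library and a log2 fold change of 0.42 (SE 0.39, adjusted p = 0.516).

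Kcna10, singled out after its values were seen, is the next gene after Kcna2 on the GRCr8 assembly, and Kcna3 is the one before it. Kcna10 had 15, 25, 81 and 102 counts in controls and 15, 2 and 1 after UVB. Controls c and d, where Kcna2 was also highest, stood far above the others, and UVB a equalled control a. Its log2 fold change was -3.13 (SE 0.95, adjusted p = 0.0673). Kcna3 had 27, 31, 52 and 53 counts in controls and 27, 19 and 51 after UVB, with a log2 fold change of -0.35 (SE 0.35, adjusted p = 0.541). Further out, Cd53 lies on one side and Lamtor5 on the other. Both had overlapping groups, with log2 fold changes of 0.17 (adjusted p = 0.758) and -0.037 (adjusted p = 0.814).

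**Figure D4:**
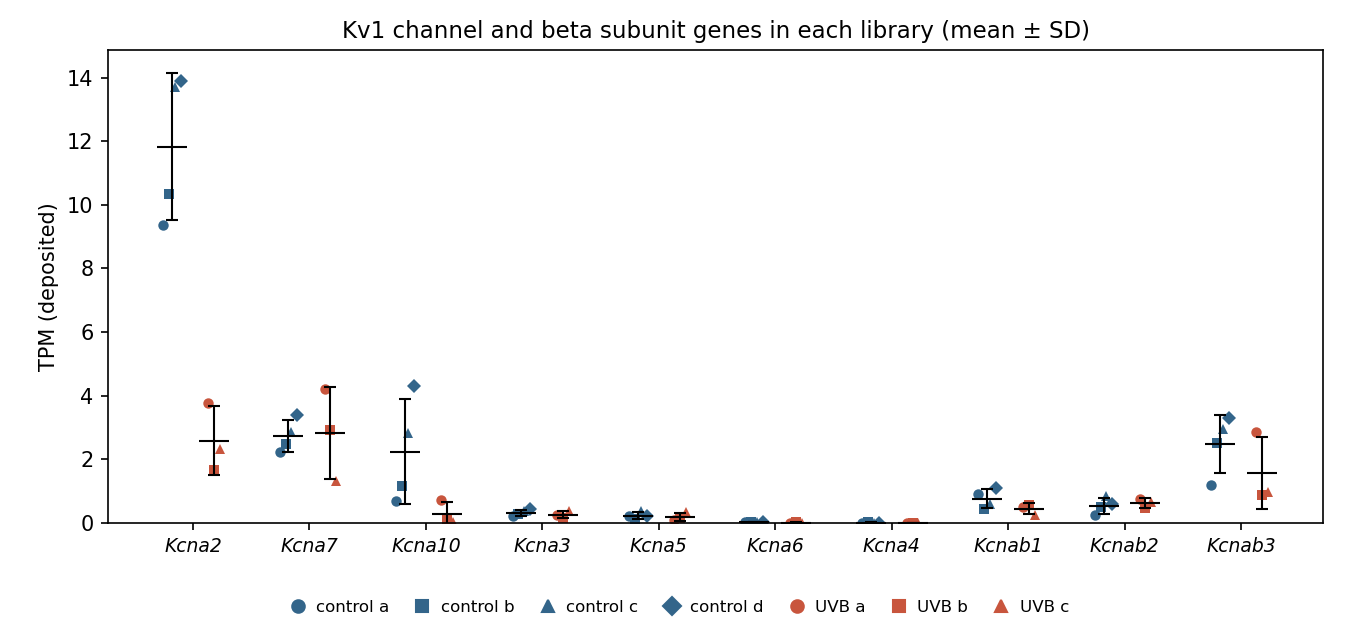
Deposited TPM (linear axis) of the Kv1 channel and beta subunit genes in every library; points are libraries and bars show the group mean ± SD (4 control and 3 UVB libraries). Kcna2 is the highest in controls (9.37 to 13.9 TPM) and lies between 1.65 and 3.78 TPM after UVB, and the Kcna10 groups overlap between 0.69 and 0.72 TPM.

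A further list held other genes of the Kv1 complex and of the juxtaparanode, the stretch of axon where these channels sit, without Kcna7 and Kcna10. Of 17 listed, 13 were tested: 1 fell, 12 did not pass, and the median log2 fold change was -0.20. The lowest values among those that did not pass were -0.92 (SE 0.58) for Adam22, a partner of the channels' scaffold, -0.77 (SE 0.39) for Kcnab1 and -0.71 (SE 0.47) for Kcnab3. Cntnap2, which anchors the channels there, was not analysed here. The gene that fell was Dlg1, a widely expressed scaffold gene, from 90.5 ± 1.32 CPM (SD, n = 4) to 78.7 ± 3.57 CPM (n = 3), a log2 fold change of -0.20 (SE 0.056, adjusted p = 0.0423). Its call was lost in 11 of 16 alternatives, among them each omission of 1 library except UVB a.

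Of 16 genes of the node and paranode, 12 were tested: 1 fell, 11 did not pass, and the median log2 fold change was -0.16. The gene that fell was Scn11a, the sodium channel Nav1.9 of nociceptors, which is not a component of nodes. It was at 5.93, 11.7, 6.87 and 8.08 CPM in controls and at 1.90, 2.36 and 2.50 CPM after UVB. All UVB libraries lay below all controls (log2 fold change -1.84, SE 0.25, adjusted p = 0.00409), with the highest level in control b and not in controls c and d as for Kcna2. Without control a or UVB a, 2 genes of the list fell in place of 1. Cntn1 and Nrcam, adhesion genes of the axon and node, had log2 fold changes of -0.68 (adjusted p = 0.0592) and -0.81 (adjusted p = 0.0610).

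The list of other voltage-gated potassium channel genes, which includes the Kv1 genes Kcna7 and Kcna10, had 9 values below 0 among 19 tested of 32 listed. Of the 19, 2 rose, 1 fell and 16 did not pass, and the median log2 fold change was 0.025, the value of Kcna7. Kcnh1 rose from 2.51 to 6.45 CPM (log2 fold change 1.37, SE 0.25, adjusted p = 0.0104) and Kcns3, a modifier subunit, from 2.19 to 4.59 CPM (1.08, SE 0.26, adjusted p = 0.027). Kcnd3, a channel of the transient A-type current, fell from 1.33 to 0.324 CPM (-1.997, SE 0.38, adjusted p = 0.0121). The Kcns3 call was lost without control c, control d or UVB c, and 3 genes fell without control a and 2 without UVB a.

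Axon and neuron genes ranged from undetected to well expressed. Of 32 listed, 30 had values, 15 passed the filter, 8 had at most 3 counts in any library, and Elavl4 and Vip had none. Of the 15 tested, 2 fell, 1 rose and 12 did not pass, with a median log2 fold change of -0.25. The cytoskeletal genes Map1b, Nefh and Mapt did not pass, and their groups overlapped. Their CPM means in controls and after UVB were 50.04 ± 5.24 (SD) and 42.2 ± 4.18 for Map1b, 11.7 ± 3.83 and 12.7 ± 1.73 for Nefh, and 9.39 ± 2.38 and 8.46 ± 0.878 for Mapt. Bsn, a scaffold gene of the presynaptic active zone, was at 3.27, 2.99, 4.69 and 3.55 CPM in controls and at 0.379, 0.271 and 0.116 CPM after UVB. All UVB libraries lay far below all controls (log2 fold change -3.84, SE 0.36, adjusted p = 0.00095). Npy, a neuropeptide of sympathetic axons, fell from 4.60 ± 0.784 CPM (SD, n = 4) to 2.32 ± 0.741 CPM (n = 3), a log2 fold change of -0.98 (SE 0.24, adjusted p = 0.0293), and lost its call when control b, c or d or UVB a or b was left out. Tubb3, a tubulin gene of neurons that other cells also make, rose from 4.43 ± 0.464 to 12.8 ± 3.39 CPM (log2 fold change 1.53, SE 0.18, adjusted p = 0.00245). Uchl1, an abundant gene of axons, was at 4.39 ± 0.931 and 3.03 ± 0.0897 CPM (log2 fold change -0.53, SE 0.20, adjusted p = 0.115).

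Over the 7 lists, 107 distinct genes were tested: 15 fell and 5 rose, or 18.7% called against 13.0% of all tested genes. Without control c, control d or UVB b, 8 fell, and without control c or control d, 3 rose. The median was -0.23, against -0.0058 over all tested genes, and 70 of 107 values were below 0, against 50.9% of all tested genes.

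Likeness to Kcna2 was measured as Pearson's r of log2 CPM over the 7 libraries, among 11965 tested genes with a mean count of at least 50. The libraries fall into the 2 groups, so this r mostly reflects the group difference, and it was also taken after subtracting group means. Over 7 libraries the nearest genes were Ctc1 (r = 0.997), Lpgat1 (0.994), Sdk2 (0.994), Cdc14b (0.993) and R3hcc1l (0.992). Lpgat1, an acyltransferase gene, was at 459, 432, 476 and 488 CPM in controls and at 315, 224 and 252 CPM after UVB. It had the order of the UVB libraries seen for Kcna2, and a log2 fold change of -0.81 (SE 0.11, adjusted p = 0.0040). The other 4 had smaller log2 fold changes, from -0.67 for Cdc14b to -0.24 for R3hcc1l.

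Nerve genes stood further down this ranking. Bsn was at place 103 (0.961), S100b at place 665 (0.882), Prx at place 1397 (0.796), Pmp22 at place 1758 (0.745) and Mbp at place 2625 (0.626). An r of at least 0.9 was reached by 505 genes. For deviations from the group means, the nearest genes were C1qtnf2 (r = 0.990), Tulp3 (0.983), Cdk6 (0.983), AABR07001896.1 (0.981) and Hexa, a lysosomal enzyme gene (0.979), and 193 genes reached 0.9. On that measure r was 0.790 for Prx and 0.716 for Pmp22, but 0.370 for Cdh19, 0.188 for S100b and -0.626 for Mbp. Within groups, over 7 libraries, Kcna2 varied together with Prx (place 727) and Pmp22 (place 1193) more than with S100b or Mbp. Kcna2, Prx and Pmp22 were each lowest in UVB b, and the difference between these r values was not tested.

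Markers of other cell types also differed between the groups. Of 8 melanocyte markers tested, 4 fell (Mitf, Tyr, Mlana and Slc45a2), and the summed level was 149 to 244 CPM in controls and 140 to 146 CPM after UVB. The marker Kit went the other way, with every UVB library above every control (log2 fold change 0.37, adjusted p = 0.0693 in edgeR). Melanocytes share S100b and Sox10 with Schwann cells. Of 7 skeletal muscle markers tested, 2 fell (Actn3 and Casq1), with a summed level of 2251 to 3094 CPM in controls and 1549 to 2666 CPM after UVB. Of 7 adipocyte markers tested 2 fell, with 145 to 200 CPM in controls and 130 to 140 CPM after UVB.

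Controls c and d were the highest in Kcna2 and also in the muscle gene Ckm and the melanocyte gene Pmel. Ckm was at 320, 331, 459 and 473 CPM in controls and 330, 287 and 155 CPM after UVB. Pmel was at 40.9, 51.5, 62.2 and 83.5 CPM in controls and 28.2, 36.2 and 34.6 CPM after UVB. Among the other melanocyte markers, controls c and d were also the highest in Tyr, Tyrp1, Mlana and Slc45a2, but not in Mitf, Oca2 or Kit. Of Merkel cell markers, 1 of 5 tested fell (Cck), with summed levels that overlapped, at 10.3 to 19.7 and 7.32 to 29.6 CPM, and the defining genes Atoh1 and Chga had at most 2 counts in any library. Endoneurial and perineurial markers were at 1013 to 1168 CPM in controls and 842 to 992 CPM after UVB, with 1 of 7 called, as higher. The largest part of that sum was the single gene Cldn1, at 609 to 760 CPM in controls and 434 to 578 CPM after UVB. Its log2 fold change was -0.37 (adjusted p = 0.0579 in edgeR), so the sum says little about the other markers of the list. Endothelial markers were higher in sum, at 99.7 to 121 CPM in controls and 142 to 162 CPM after UVB, with 2 of 6 called higher.

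Macrophage and fibroblast markers were higher in part. Of 7 macrophage markers 3 rose (Cd163 by 3.50, Mrc1 by 1.75 and C1qb by 1.29 on the log2 scale), the median was 0.85, and the summed level was 67.0 to 121 CPM in controls and 100.3 to 187 CPM after UVB. Of 6 fibroblast markers 3 rose (Lum by 1.95, Dcn by 0.95 and Pdgfra by 0.91) and 1 fell (Pi16), with a median of 0.46 and summed levels of 2503 to 3846 and 2504 to 4170 CPM. Of 8 meibocyte markers 2 fell (Awat2 and Plin2), and of 6 keratinocyte markers 1 rose (Krt14) and 1 fell (Krt77). The part of these cell types in the differences of Kcna2, S100b and the myelin genes was not tested.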

How the data were processed

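RNA from 4 control and 3 UVB libraries was analysed. Per the submitters' processing notes, FastQC, Trimmomatic, DRAGEN and Picard and the genome build rn7 were used, and the role of each tool, the annotation and the strand setting are not given in the sources used here. The authors deposited expected counts (estimated counts per gene, of which 12.5% of the values were not whole) and TPM values, which summed to between 82.0% and 84.1% of a full TPM total. Since gene names with commas shift cells, the 7 values were read from the right end of each row. Of 17251 rows, 5 lacked a value. Of 11951 genes checked, 10 had a ratio of count to TPM off by more than 1.5 times in a library. Every pair of replicates differed by more than sampling noise.

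Counts were rounded, since the planned test assumed whole counts, filtered with filterByExpr, scaled by TMM and tested two-sided with edgeR 4.0.16 (robust quasi-likelihood, R 4.3.3) with Benjamini-Hochberg adjustment over 13709 genes and a threshold of 0.05. The analysis was tested on simulated data. Alternatives used DESeq2 1.42.0, limma 3.58.1, other scalings and filters, log2 TPM with a pseudocount of 1 or 0.1, and the omission of each library.

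The members and lists were chosen with earlier results of these data known. The genes named are the 8 members, nerve genes chosen by name (Sox10, Kcnab2, Cntnap2, Nefl, Uchl1, Bsn and others not reported here), up to 3 called genes per list with the smallest p, and the 5 genes most like Kcna2 by each measure. Cntnap2, one of these, was not analysed here. Others named were chosen after their values were seen (Dip2a, Gldn, Plekhb1, Fa2h, Mal, Erbb3, Ncam1, Jun, Cntn1, Nrcam, Pou3f1, Adam22, Map1b, Nefh, Mapt, Ckm, Pmel, the neighbours and relatives of Kcna2 and single markers). Gene IDs were matched to RefSeq GRCr8 for 15684 genes. Coordinates are those of the RefSeq promoter windows only.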

Additional observations from a re-analysis of the deposited data

Results flagged for a closer look

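In the controls, 45 values were examined for 1 library far from the other 3, and chance would give about 2.25 such values at 1 in 20. There were 2, both in control a. Kcnh1, a potassium channel gene that was higher after UVB, stood at 3.828 CPM in control a and between 1.932 and 2.222 CPM in the other controls. The gap was 0.847 of the whole range, above Dixon's critical value for 4 samples. The mean log2 CPM of the node and paranode genes was 2.643 in control a against 2.976 to 3.036 in controls b, c and d, with a gap that spanned 0.847 of the range. Control a was not apart from the other controls by this measure in Kcna2, S100b or another member.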

How the results depend on the processing

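Each of the 16 alternatives that gave a value kept the direction of the 6 tested members. With 1 library left out, the log2 fold change ranged from -2.564 to -1.973 for Kcna2, -1.127 to -0.8713 for S100b, -0.3169 to -0.1907 for Mbp, -0.4044 to -0.1788 for Pmp22, -0.3381 to -0.1128 for Prx and -0.3506 to -0.1308 for Cdh19. Kcna2 minus the tested Schwann cell members was -1.80 in fitted fold changes and ranged from -2.151 to -1.606. Against the identity genes it was -2.168, ranged from -2.459 to -1.998, and was -1.722 and -1.767 under log2(TPM + 1) with and without a filter, a scale that narrows the change of low genes. Over all genes, 1787 were called and 851 to 1898 with 1 library left out. Of these, 924 were lower, 430 to 971 with 1 library left out, and 571 under log2(TPM + 1) without a filter. In the lists 15 were lower, 9 under log2(TPM + 0.1) where fewer genes were tested, and 8 to 19 with 1 library left out, and 5 were higher (3 to 5). DESeq2 called 3 node and paranode genes lower, where edgeR called 1, and 3 other potassium channel genes lower, where edgeR called 1. By Spearman's rho, 2 of the 5 genes nearest to Kcna2 stayed within the first 50. Tulp3 ranged from -0.1136 and turned to 0.04915 (adjusted p = 0.792) without UVB b. AABR07001896.1 ranged from -0.1601 and turned to 0.00171 (adjusted p = 0.997) without control c and to 0.05966 (adjusted p = 0.884) without UVB b. The cause of these shifts was not tested. No paired analysis was possible because replicate numbers are missing from the column names. Depth limits Mag, Kcnab2, Kcna4, Kcna6 and the sparse neuron genes, with under 20 counts per library.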
